A study of Mus musculus with 4 samples.

Results

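Cells with a Cdkn2a transcript are cells in which at least 1 RNA molecule of Cdkn2a (ENSMUSG00000044303) was counted by CITE-seq, a single-cell method that reads mRNA and an oligonucleotide-tagged antibody, here against CD24, in the same droplet. They were chosen on that count alone, from cells with at least 200 detected genes and at most 20% mitochondrial RNA. There were 263 such cells among 15670, of which 95 of 10063 came from a 6-month mouse and 168 of 5607 from a 24-month mouse. A molecule is counted once through its UMI, a random tag added before amplification. Both mice were untreated and carried INK-ATTAC, a transgene in which a fragment of the p16 promoter drives an inducible caspase 8 with a FLAG tag, and no mouse without the transgene was profiled. Bone and marrow cells were pooled after digestion, depleted of lineage-marked blood cells and sorted as live and CD45-, so the shares below describe sorted cells. With 1 mouse per age, age cannot be told apart from the mouse, its library or its sequencing depth, and no test between ages was made.

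Cdkn2a encodes p16Ink4a, which binds CDK4 and CDK6 and keeps RB active, and in another reading frame p19Arf, which stabilises p53 by binding MDM2. The proteins come from separate promoters and first exons that splice to shared downstream exons. A 3' library reads the shared end, so the UMIs counted here do not say which of the proteins a cell could make. Cdkn2b, the neighbouring gene, encodes p15Ink4b, which inhibits the same kinases, and the locus is kept silent by Polycomb in young tissues and becomes active with age and in senescence, a lasting arrest of the cell cycle often joined by a secretory phenotype (SASP).

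In the RefSeq annotation of GRCm38.p6, the build named mm10 in the processing notes of the submitters, Cdkn2a lies on chromosome 4 from 89274473 to 89294619 and Cdkn2b from 89306289 to 89311032, both on the minus strand and 11.7 kb apart. The transcription starts of Cdkn2a lie 12.4 kb apart. Windows of 250 bases before to 50 bases after the 3 starts are shown because these promoters govern the transcripts by which the cells were chosen and that of the gene that moved with them, and because a fragment of the p16 promoter drives the transgene. They are from RefSeq, read 5' to 3' on the minus strand, with each CG dinucleotide, the site of DNA methylation, in capitals.
Cdkn2a proximal start (Ink4a), chr4:89282143-89282442: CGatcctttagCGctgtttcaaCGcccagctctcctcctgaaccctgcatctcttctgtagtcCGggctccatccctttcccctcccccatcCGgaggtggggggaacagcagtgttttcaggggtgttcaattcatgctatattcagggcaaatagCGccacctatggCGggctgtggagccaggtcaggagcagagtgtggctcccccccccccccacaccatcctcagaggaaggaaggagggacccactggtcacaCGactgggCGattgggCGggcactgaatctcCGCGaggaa
Cdkn2a distal start (Arf), chr4:89294570-89294869: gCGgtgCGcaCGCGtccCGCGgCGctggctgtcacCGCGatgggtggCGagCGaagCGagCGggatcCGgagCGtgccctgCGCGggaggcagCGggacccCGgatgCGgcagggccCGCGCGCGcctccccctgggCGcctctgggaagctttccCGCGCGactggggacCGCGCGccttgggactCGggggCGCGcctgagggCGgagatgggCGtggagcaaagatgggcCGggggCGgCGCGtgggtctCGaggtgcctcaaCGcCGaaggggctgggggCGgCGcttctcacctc
Cdkn2b start, chr4:89310983-89311282: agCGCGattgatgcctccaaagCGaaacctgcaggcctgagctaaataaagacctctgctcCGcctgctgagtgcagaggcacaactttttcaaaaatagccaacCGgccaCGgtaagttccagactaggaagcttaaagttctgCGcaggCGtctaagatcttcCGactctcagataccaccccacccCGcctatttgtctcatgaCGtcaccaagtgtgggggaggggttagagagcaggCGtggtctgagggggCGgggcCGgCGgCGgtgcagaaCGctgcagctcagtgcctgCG
The proximal window held 12 CG dinucleotides, the distal window 45 and that of Cdkn2b 18, against a median of 7 over 32851 promoter windows of that length, of which 94.6% held at least 1. G and C made up 60.3%, 77.0% and 57.7% of the bases, against a median of 52.7%. The dinucleotide reads alike on both strands and its matches do not overlap. Methylation was not measured.

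The libraries held 81076421 RNA UMIs in the 6-month and 66702846 in the 24-month mouse, with medians of 6385 and 9711 per cell, and 1 of the removed barcodes in each library held a Cdkn2a UMI. No cell with a Cdkn2a UMI carried any of the 19 barcodes found in both libraries. Scrublet called 2 of the 95 and 2 of the 168 cells as doublets.

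A Cdkn2a UMI was seen in 0.944% of the cells of the 6-month mouse (exact binomial 95% interval 0.764 to 1.15) and in 3.00% of those of the 24-month mouse (2.57 to 3.48). Summed over cells, Cdkn2a stood at 159 UMIs, or 1.96 CPM (exact Poisson interval 1.67 to 2.29), in the 6-month mouse and at 579 UMIs, or 8.68 CPM (7.99 to 9.42), in the 24-month mouse. These intervals cover counting error only and not the spread between mice. With every cell thinned to 2000 UMIs, the expected shares were 0.33% over 9293 cells and 0.93% over 5111 cells. The thinned share, too, was higher in the older library.

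Many of the cells sat at the edge of detection. In the 6-month mouse 63 of the 95 cells held exactly 1 Cdkn2a UMI and 32 held 2 or more, with a highest value of 9. In the 24-month mouse 70 of the 168 held 1 UMI and 98 held 2 or more, 31 of them 5 or more. The cells just outside the rule are the 9968 and 5439 cells with none. The highest cell, an osteoblast-like cell of the 24-month mouse with 51016 RNA UMIs, held 66 Cdkn2a UMIs, 11.4% of that library's total, and without it the level was 7.69 CPM. It also held 16 UMIs of Cdkn2b and none of Mki67, and was not called a doublet.

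Detection followed depth. In the 6-month mouse the share ran from 0.0993% of the cells in the lowest decile of RNA UMIs to 2.68% in the highest. In the 24-month mouse it ran from 0.178% to 9.64%, where the median cell held 30880.5 RNA UMIs. The level differed between deciles as well in the 24-month mouse, where the highest decile stood at 15.9 CPM (14.2 to 17.7) and the fourth at 1.92 CPM (0.829 to 3.78), while the corresponding deciles of the 6-month mouse stood at 2.12 CPM (1.58 to 2.79) and 1.84 CPM (0.839 to 3.48). The cell with the most Cdkn2a held 66 of the 319 UMIs of the highest decile of the 24-month mouse. Depth was matched in the gene comparisons over all cells below, and not in those within a class.

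**Figure D1:**
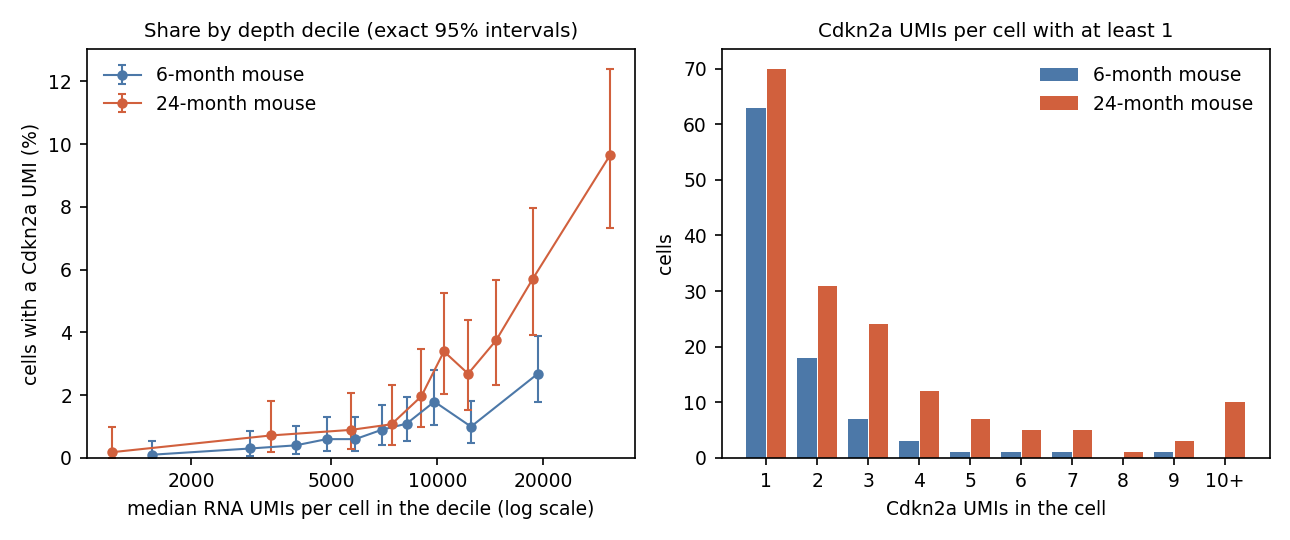
Left, percentage of cells with at least 1 Cdkn2a UMI against the median RNA UMIs per cell (log scale) for each decile of depth in each mouse, with exact 95% intervals. Right, number of cells by their Cdkn2a UMIs, from 1 to 10 or more; the share reaches 2.68% in the deepest decile of the 6-month mouse and 9.64% in that of the 24-month mouse, and 63 and 70 cells hold a single UMI.

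The cells were found mainly in the mesenchymal lineages of bone and joint. Clustering was done without Cdkn2a, and classes were named from marker genes as "like" cells. The 7 mesenchymal classes held 87 of the 95 cells in the 6-month mouse and 156 of the 168 in the 24-month mouse, 91.6% and 92.9%, whereas they made up 81.4% and 75% of all cells. Joint-lining-like cells, led by Prg4 (lubricin), Htra4 and Clic5, had the highest share, with 13 of 194 cells or 6.70% (3.62 to 11.2) in the 6-month and 18 of 91 or 19.8% (12.2 to 29.4) in the 24-month mouse. Osteoblast-like cells contributed the most cells, with 34 of 1189 or 2.86% (1.99 to 3.97) and 61 of 592 or 10.3% (7.97 to 13.0). At 2000 UMIs per cell the order stayed, at 2.86% and 4.33% of joint-lining-like and 0.964% and 2.94% of osteoblast-like cells.

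Among the osteoblast-like cells, 3 clusters differed in maturity and in Cdkn2a. The cluster led by Tnn, Ostn and Postn had 18 of 915 cells with a UMI (1.97%) in the 6-month and 29 of 349 (8.31%) in the 24-month mouse, with 4.37 CPM (2.97 to 6.21) and 42.5 CPM (37.0 to 48.6). Of its 212 Cdkn2a UMIs in the 24-month mouse, 66 were in the highest cell named above. The Poisson interval treats those UMIs as independent. The cluster led by Dmp1 and Spp1, genes of cells embedding in mineral, had 16 of 224 (7.14%) and 16 of 151 (10.6%), with 17.0 CPM (11.4 to 24.4) and 24.7 CPM (17.3 to 34.2). The cluster led by Bglap (osteocalcin) and Car3 had none in 50 cells, where the exact interval reaches 7.11% and 3 counts would be 6.00%, and 16 of 92 (17.4%) at a median of 31290 RNA UMIs. The intervals of the mice overlapped in the second of these clusters and not in the other two, and whether the clusters differ in this was not tested.

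Stromal cells with Lepr and Cxcl12, the niche cells of the marrow, were the largest class and had a low share. A UMI was seen in 22 of 2775 (0.793%, 0.497 to 1.20) and 24 of 1718 (1.40%, 0.897 to 2.07). Within them the cluster led by Cxcl5, Kit, Cxcl14 and Adipoq, an adipocyte hormone, had the highest share, with 8 of 245 (3.27%) and 13 of 223 (5.83%). Thinned to 2000 UMIs it stood at 1.17% and 1.95%, and the largest stromal cluster at 0.235% and 0.24%. In fibroblast-like cells the count was 4 of 2682 (0.149%, 0.0407 to 0.381) in the 6-month and 28 of 1244 (2.25%, 1.5 to 3.24) in the 24-month mouse. Of the latter, 13 lay in the cluster led by Scg3 and Sema3e and 11 in that led by Cxcl1, Tnfaip6 and Il6, and these clusters had 0 of 626 and 0 of 469 cells in the 6-month mouse. The cluster led by Pi16 had 2 of 568 and 0 of 231. Tendon- or periosteum-like cells had 7 of 819 (0.855%) and 16 of 328 (4.88%), of which 5 and 15 were in the cluster led by Mmp3 and Dio2.

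Blood cells served as the background for free RNA. No Cdkn2a UMI was seen in 311 and 141 progenitor-like cells at medians of 25353 and 34883 RNA UMIs, where the exact intervals reach 1.18% and 2.58% and 3 counts would be 0.965% and 2.13%. These limit the cells with a UMI and not the cells that express the gene. Erythroid-like cells had 0 of 347 and 1 of 545, neutrophil-like cells 0 of 195 and 1 of 320, and megakaryocyte-like cells 0 of 70 and 1 of 52 (1.92%, 0.0487 to 10.3), the last with 3 UMIs. B-lineage-like cells had 5 of 392 (1.28%, 0.415 to 2.95) and 4 of 82 (4.88%, 1.34 to 12.0). Each of these 9 cells held a single UMI, and all 5 of the 6-month mouse also held Mki67 (exact interval 47.8 to 100). So did 258 of 387 B-lineage-like cells without Cdkn2a of that mouse (66.7%, 61.7 to 71.3). Depth was not matched here, at medians of 9592 against 4654 RNA UMIs.

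**Figure D2:**
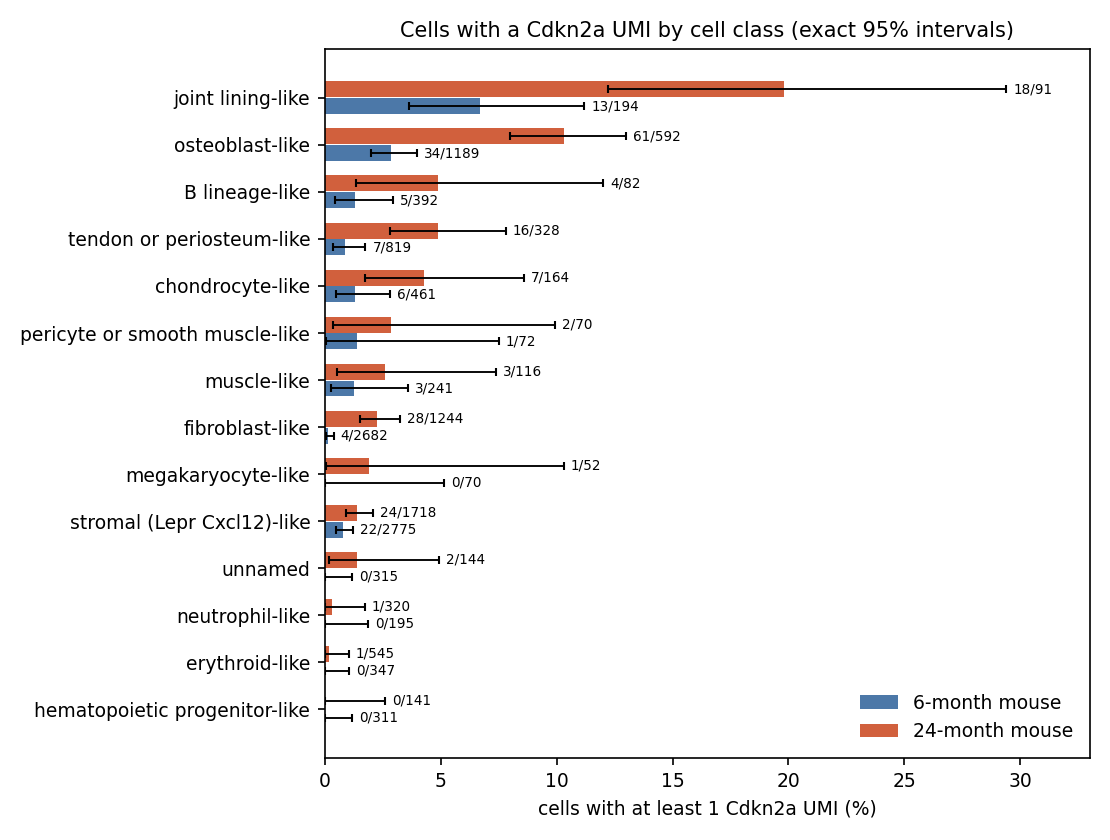
Percentage of cells with at least 1 Cdkn2a UMI in each cell class (horizontal axis, %) for the 6-month and the 24-month mouse, with exact 95% intervals and the counts of cells printed beside the bars. Joint-lining-like and osteoblast-like cells stand highest in both mice, at 6.70% and 2.86% in the 6-month and 19.8% and 10.3% in the 24-month mouse.

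To ask what else the cells express, each was first set against 5 cells without Cdkn2a from the same library and decile of depth. UMIs were summed over the cells of each kind in each mouse, which gave 4 sums, and tested with edgeR's quasi-likelihood F test with the mouse as a block. The fit rests on 2 mice and 1 residual degree of freedom, and all adjusted p-values below are from it with Benjamini-Hochberg adjustment over all genes tested. Of 12658 genes, 1173 (9.27%) were called. Of all genes, 416 (3.29%) were higher and 757 (5.98%) lower in the cells with Cdkn2a, at an adjusted p under 0.05. The count moved with the choice of matched cells, to 665 with another draw, and it was 647 with DESeq2 and 706 without the mouse as a block.

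The mix of classes differed between the sides of this comparison, and it was held fixed in the second matching below. Osteoblast-like cells were 35.8% and 36.3% of the cells with Cdkn2a and 9.47% and 13.2% of the depth-matched cells. Joint-lining-like cells were 13.7% and 10.7% against 2.53% and 2.38%. Progenitor-like cells were 0% and 0% against 8.42% and 8.93%, and erythroid-like cells 0% and 0.595% against 5.89% and 8.57%. Of the 16 osteoblast and osteocyte genes tested, 11 were higher and 0 lower, with a median log2 difference of 1.43 against -0.01 over all genes. Higher calls made up 3.29% and lower calls 5.98% of all genes. Spp1 (osteopontin) had a log2 difference of 2.24 (SE 0.318, adjusted p = 0.0204), and Sp7, the osteoblast transcription factor, of 1.53 (SE 0.191, adjusted p = 0.0164). Bglap was higher by 2.03 (adjusted p = 0.0316), but 8885 of its 24437 UMIs in the 24-month cells came from 1 cell. Of 33 proliferation genes, 18 were lower and 0 higher, among them Mcm2 (-3.70) and Cdc6 (-3.71), which load and license replication origins. Of 11 fibroblast genes 5 were lower, with Pi16 at -2.30 (SE 0.176, adjusted p = 0.00654). The 10 lowest genes of the rule, among them Gatm and Slc38a5, had 0 UMIs in the cells with Cdkn2a of both mice, and the first was at least 11.3-fold and 34.6-fold lower in the 6- and 24-month mouse against a floor of 3 counts per sum.

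Each cell was therefore also set against 3 cells without Cdkn2a from the same library, cluster and band of depth, with 3 bands per cluster. All 95 cells of the 6-month and 158 of the 168 cells of the 24-month mouse could be matched, and 10 had too few partners. Of 11740 genes, 153 (1.3%) were called. Of all genes, 72 (0.613%) were higher and 81 (0.69%) lower. The count was 252 with another draw and 23 with DESeq2, and no gene was called without the mouse as a block, where 392 had an unadjusted p under 0.05. Of the 11 osteoblast genes higher in the depth-matched comparison none was called within clusters, where the median of the list was 0.03.

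Cdkn2b was the one gene among the 10 highest of both comparisons, counting called genes with at least 10 UMIs in the higher group of each mouse. Its mRNA was found in 17 of the 95 cells of the 6-month mouse (17.9%, 10.8 to 27.1), in 12 of 475 depth-matched cells (2.53%, 1.31 to 4.37) and in 14 of 285 cluster-matched cells (4.91%, 2.71 to 8.10). In the 24-month mouse it was found in 40 of 168 cells (23.8%, 17.6 to 31.0), in 27 of 840 depth-matched cells (3.21%, 2.13 to 4.64) and in 29 of 474 cluster-matched cells (6.12%, 4.14 to 8.67). All 40 were among the 158 cells with cluster partners. The intervals of the cells with Cdkn2a did not meet those of the matched cells in either mouse. They treat the cells of 1 mouse as independent. Matching by bands left some difference in depth. The upper quartiles were 15296 and 28404 RNA UMIs, against 15475 and 24381 in depth-matched cells. Within clusters they were 15296 and 24840 against 13117 and 20770. Summed, Cdkn2b (ENSMUSG00000073802) had a log2 difference of 3.67 from depth-matched cells (SE 0.371, adjusted p = 0.0104) and of 2.65 from cluster-matched cells (SE 0.308, adjusted p = 0.00138). Its log2 ratios in the mice were 2.37 and 3.58 in the first and 1.54 and 2.80 in the second comparison. It passed in all 11 other fits of the first, at 2.90 to 3.99, and in 7 of 8 of the second, at 2.45 to 2.65, the exception being the fit without the mouse as a block (adjusted p = 1). The 126 UMIs of the 24-month cells were uneven, with 19 in 1 cell.

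Cdkn2b was seen in 229 cells of the 6-month and 188 of the 24-month mouse, and 17 (7.42%, 4.38 to 11.6) and 40 (21.3%, 15.7 to 27.8) of them also held Cdkn2a. Within osteoblast-like cells Cdkn2b was present in 7 of 34 cells with and 56 of 1155 without Cdkn2a (20.6% and 4.85%) in the 6-month, and in 19 of 61 and 24 of 531 (31.1% and 4.52%) in the 24-month mouse. These cells were not matched for depth, and the osteoblast-like cells with Cdkn2a had medians of 11081 and 28327 RNA UMIs against 6467 and 11762 without. Joint-lining-like cells, at closer medians of 10747 and 16219.5 against 10055 and 16095, showed 5 of 13 and 29 of 181, and 6 of 18 and 11 of 73, with overlapping intervals. In stromal cells, at 6879 and 10418 against 5090 and 8359, it was rare in both, at 0 of 22 and 10 of 2753, and 1 of 24 and 17 of 1694. The share with Cdkn2b was 6 of 63 among cells with 1 Cdkn2a UMI and 11 of 32 among those with 2 or more in the 6-month mouse, and 11 of 70 and 29 of 98 in the 24-month mouse. Thinned to 2000 UMIs these shares were 1.49% and 7.07%, and 3.37% and 6.13%. The erythroid-like background for Cdkn2b was 1 of 347 and 1 of 545 cells.

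**Figure D3:**
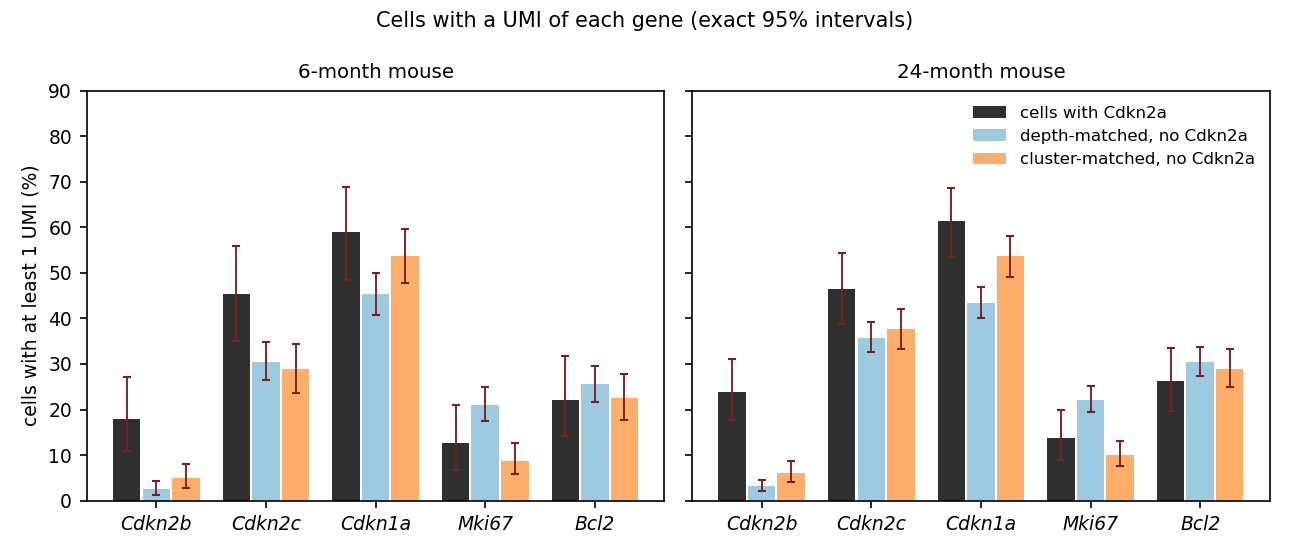
Percentage of cells with at least 1 UMI (vertical axis, %) of 5 genes in cells with Cdkn2a, depth-matched and cluster-matched cells of each mouse, with exact 95% intervals. Cdkn2b stands at 17.9% and 23.8% in the cells with Cdkn2a against at most 4.91% and 6.12% in matched cells, whereas the intervals of Bcl2 overlap throughout.

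Mtap, which lies on the other side of Cdkn2a, stood at 0.26 by depth and 0.45 within clusters and was not called. Of the other inhibitors of cyclin-dependent kinases 1 of 5 passed by depth and none within clusters. Cdkn2c (p18) was higher by 0.74 against depth-matched cells (SE 0.152, adjusted p = 0.0447), a call kept in 4 of 11 other fits, and stood at 0.49 within clusters (adjusted p = 0.160). Cdkn1a, the gene of p21 and a target of p53, was detected in 56 of 95 and 103 of 168 cells, 58.9% and 61.3%, against 45.3% and 43.3% of depth-matched and 53.7% and 53.6% of cluster-matched cells. By depth it stood at 0.42 (SE 0.172, adjusted p = 0.183), and it passed in 1 of 11 other fits, that of cells with 2 or more Cdkn2a UMIs (0.82, adjusted p = 0.00534). Within clusters its sums stood at 211 and 213 CPM against 204 and 198 CPM, a log2 difference of 0.08 (SE 0.117, adjusted p = 0.936). Cdkn1b (p27), Cdkn1c (p57) and Cdkn2d (p19Ink4d) stood at -0.08, -0.23 and 0.09 (adjusted p = 0.941, 0.818 and 0.962). Of 15 genes for CDKs, cyclins and RB proteins, 1 was higher and 5 lower by depth, with Ccnd1 at 1.25 (adjusted p = 0.0244) and Rb1 at -1.33 (adjusted p = 0.0243), and none was called within clusters. Of 29 Polycomb and other regulators of the locus, Tbx2, a repressor of Arf and p21, was higher at 1.01 (adjusted p = 0.0427) and Ezh2 and Suz12, Polycomb subunits, lower at -0.79 (adjusted p = 0.0303) and -0.72 (adjusted p = 0.0401) by depth. These are 3 of 29, beside 9.27% of all genes, and the calls held in 9, 4 and 7 of 11 other fits. Within clusters none of the list was called.

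Genes of the p53 response showed 1 member that moved in both comparisons. Phlda3, an inhibitor of AKT that p53 induces, was found in 51 of 95 and 117 of 168 cells, and was higher by 1.02 (SE 0.164, adjusted p = 0.0261) by depth and by 0.78 (SE 0.126, adjusted p = 0.00937) within clusters. Within clusters the remaining 23 of the 24 genes tested were not called. Over all genes, 1.3% were called within clusters and 9.27% by depth. The within-cluster call of Phlda3 was lost with DESeq2, at a mitochondrial limit of 10% and without the block. Trp53 itself was lower by depth at -0.91 (adjusted p = 0.0340) and stood at 0.10 within clusters (adjusted p = 0.935). Of 18 genes of the DNA damage response, 4 were lower by depth. Within clusters 1 of 17 was called, H2afx at 1.03 (SE 0.137, adjusted p = 0.00273), a histone gene that is also high in dividing cells, with a call kept in 5 of 8 other fits.

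Within clusters 13 of 32 proliferation genes were higher and 0 lower, against 18 of 33 lower by depth. The shares over all genes were 0.613% higher within clusters and 5.98% lower by depth. Mki67, Ube2c and Tk1 were called in both comparisons, in opposite directions, while Mcm2 and Cdc6 stood at -0.76 and -0.78 within clusters (adjusted p = 0.648 and 0.763). Mki67 (Ki67), a marker of cycling cells, stood at -0.98 (SE 0.207, adjusted p = 0.0478) by depth and at 1.11 (SE 0.149, adjusted p = 0.00273) within clusters, and Ube2c, which drives exit from mitosis, at -0.77 (adjusted p = 0.0461) and 1.72 (adjusted p = 0.00213). Their calls by depth held in 4 and 5 of 11 other fits, Mki67 being lost with another draw among others, and their calls within clusters in 6 of 8. Mki67 was detected in 12 of 95 (12.6%, 6.70 to 21.0) and 23 of 168 cells (13.7%, 8.88 to 19.8), and in 25 of 285 (8.77%, 5.76 to 12.7) and 48 of 474 (10.1%, 7.56 to 13.2) cluster-matched cells. All 23 were among the 158 cells of the 24-month mouse with cluster partners. The sums rested on few cells, since 5 cells held 62.7% of the 2482 UMIs of the list in the 6-month and 69.4% of the 4258 in the 24-month mouse. The list took over 1% of all RNA UMIs in 7 of 95 cells, 4 of them B-lineage-like and 3 osteoblast-like, and in 5 of 168 cells, 2 of them B-lineage-like, 2 osteoblast-like and 1 fibroblast-like. Among cluster-matched cells this held for 16 of 285 and 8 of 474. The median cell was low in all groups, at 0.0320% and 0.0279% with Cdkn2a against 0.0305% and 0.0251% in cluster-matched cells. It stood at 0.0289% in the 158 cells of the 24-month mouse with cluster partners. The 5 osteoblast-like cells in this state included 4 with 2 or more Cdkn2a UMIs.

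The combination Bcl2 with no Mki67 was counted because the study defined senescent cells by protein as p16+ Ki67- BCL-2+. The paper also reported, from single-cell RNA, that Mki67+ and Bcl2+ subpopulations of Cdkn2a+ cells excluded each other. Bcl2, an inhibitor of apoptosis, was detected with no Mki67 in 19 of 95 cells (20.0%, 12.5 to 29.5) and in 38 of 168 (22.6%, 16.5 to 29.7). Depth-matched cells showed 21.5% (17.9 to 25.4) and 26.1% (23.1 to 29.2), and cluster-matched cells 21.1% (16.5 to 26.3) and 25.5% (21.7 to 29.7). All of these intervals overlapped within each mouse. Bcl2 was low, at 30 and 65 UMIs over all cells with Cdkn2a, and an absent UMI at this depth does not show an absent transcript. Its log2 difference was -0.21 (SE 0.193, adjusted p = 0.525) by depth and -0.18 (SE 0.197, adjusted p = 0.893) within clusters. Cdkn1a was also detected in 11 of the 19 and 23 of the 38 cells. Of all cells with Cdkn2a and Bcl2, 2 of 21 and 6 of 44 also held Mki67. In the BCL2 family Bok, a pro-death member, was higher at 1.5 (SE 0.211, adjusted p = 0.0204) by depth, and stood at 0.57 within clusters (adjusted p = 0.163).

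Secreted factors of the SASP list moved in both directions. By depth, 7 of 50 genes were higher and 5 lower, with a median of 0.17, and within clusters 5 of 47 were higher and 6 lower, with a median of -0.10. Of all genes, 9.27% were called by depth and 1.3% within clusters. Timp1, an inhibitor of matrix metalloproteinases named after its values were seen, was higher in both at 1.90 (SE 0.142, adjusted p = 0.00654) and 0.80 (SE 0.115, adjusted p = 0.00427), and was present in 65 of 95 and 126 of 168 cells. It passed in all 11 other fits by depth and in 7 of 8 within clusters. Il6 was lower in both, at -1.61 (SE 0.343, adjusted p = 0.0480) and -1.17 (SE 0.180, adjusted p = 0.00669), with 6 UMIs in 4 cells of the 6-month and 102 in 14 cells of the 24-month mouse. The call by depth held in 4 of 11 and that within clusters in 5 of 8 other fits. Ptgs2, which makes prostaglandins and was likewise chosen after its values were seen, stood at -2.30 (adjusted p = 0.0137) and -1.66 (adjusted p = 0.00387), with calls kept in 9 of 11 and 4 of 8 other fits. Cxcl2 was higher within clusters at 1.89 (SE 0.167, adjusted p = 0.000158), but 131 of its 350 UMIs in the 24-month cells were in 1 cell, and the call was lost with another draw, at a mitochondrial limit of 10% and without the block. Ereg, a ligand of the EGF receptor, was higher in both at 2.93 and 2.09 (adjusted p = 0.0330 and 0.0274) on 4 and 38 UMIs in 2 and 9 cells, with 20 of the 38 in 1 cell, and its call within clusters held in 4 of 8 other fits. Cxcl1 and Ccl2 were not called in either comparison, with -0.40 and 0.41 within clusters (adjusted p = 0.197 and 0.918). Cxcl12 stood at 5330 and 3720 CPM against 6440 and 3940 CPM within clusters, a difference of -0.18 (adjusted p = 0.758). Ccl3, Ccl4 and Il1b, lower by depth at -4.56, -4.44 and -2.65 (adjusted p = 0.0322, 0.0103 and 0.0388), encode cytokines, and the first pair had 0 UMIs in the 6-month and 1 and 5 in the 24-month cells. Of the 44 Il1b UMIs of the 24-month cells, 39 were in 1 cell, and its call held in 6 of 10 other fits. Neutrophil-like cells were 1.05% and 2.62% of the depth-matched cells against 0% and 0.595% of the cells with Cdkn2a, and their part in these differences was not tested. Tnf and Il1a did not pass the filter on low counts.

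Of the 11 genes of the fibroblast list, 5 were lower by depth and 4 within clusters, and 0 were higher in either. Lower calls made up 5.98% of all genes by depth and 0.69% within clusters. Pdgfra, a receptor common to mesenchymal cells, stood at -0.02 and -0.22 (adjusted p = 0.967 and 0.731), and Ly6a (Sca-1) at -1.21 and -0.60 (adjusted p = 0.116 and 0.149). C3, a complement component, was detected in 24 of 95 and 56 of 168 cells and stood at -1.92 (SE 0.144, adjusted p = 0.00654) by depth and at -1.34 (SE 0.125, adjusted p = 0.000245) within clusters. Pi16 stood at -1.36 (SE 0.190, adjusted p = 0.00355) and Clec3b at -1.06 (SE 0.184, adjusted p = 0.0137) within clusters. C3 passed in 7 of 8 other within-cluster fits, Pi16 in 5 and Clec3b in 3. Of the 12 marrow stroma genes, Adipoq was lower within clusters at -0.77 (SE 0.126, adjusted p = 0.0102), a call kept in 2 of 8 other fits, and Lepr stood at -0.52 (adjusted p = 0.0774). Of the chondrocyte list, Prg4, Col11a1 and Col11a2 were higher by depth at 1.25, 1.79 and 2.26 (adjusted p = 0.0348, 0.0190 and 0.0405) and stood at -0.36, -0.37 and -0.13 within clusters (adjusted p = 0.608, 0.371 and 0.947).

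Some stress genes were lower within clusters, of which those outside the stress-induced factor Atf3 were chosen for naming after their values were seen. Of 13 heat shock and oxidative stress genes 3 were lower and 0 higher, Atf3 at -1.13 (SE 0.149, adjusted p = 0.00273), Hspa1a at -0.93 (adjusted p = 0.00273) and Hspa1b at -0.77 (adjusted p = 0.0142). Of 13 immediate-early genes 3 were lower, Ier3 at -0.82, Nr4a1 at -0.69 and Zfp36 at -0.63 (adjusted p = 0.00474, 0.0217 and 0.0232). Over all genes, 0.69% were lower within clusters. The calls of these 6 genes held in 5 or 6 of 8 other fits. Mitochondrial RNA took a median of 2.81% and 2.35% of the UMIs of the cells with Cdkn2a and 2.85% and 2.56% of those of cluster-matched cells. Hspa1a and Hspa1b are near-identical, so how their UMIs divide is uncertain.

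Among the genes highest by depth, Fut9 and Gria2, at 3.30 and 3.26 (adjusted p = 0.00970 and 0.0157), are also among the 10 leading genes of the joint-lining-like cluster, and stood at 0.91 and 1.20 within clusters (adjusted p = 0.123 and 0.0815). Prkg2, a cGMP-dependent kinase of growing cartilage, was higher by depth at 3.17 (SE 0.265, adjusted p = 0.00726) in 10 of 95 and 33 of 168 cells, and by 1.02 within clusters (SE 0.217, adjusted p = 0.0440), a call kept in 1 of 8 other fits. Serpina1a, Serpina1b and Serpina1c, near-identical antitrypsin genes, were high by depth at 3.66, 4.74 and 6.19 (adjusted p = 0.0140, 0.0164 and 0.00315), with 462 of 671, 236 of 281 and 115 of 127 UMIs of the 6-month cells in 1 cell each, and all of those of the 24-month cells with Cdkn2a in 1 cell each. Within clusters they stood at 0.31, 2.03 and 1.81 (adjusted p = 0.691, 0.000414 and 0.00589), with 0 UMIs in the matched 24-month members, and the calls of Serpina1b and Serpina1c held in 6 of 8 other fits. Within clusters the 10 highest genes included the mitotic genes Bub1b (1.98), Pbk (1.79), Ncapg (1.78) and Anln (1.68), each found in 6 to 9 cells per mouse and called in 3, 4, 4 and 6 of 8 other fits.

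The lowest genes within clusters fell into those spread over many cells and those of single cells. Npnt (nephronectin), a matrix ligand of integrins, had 7 UMIs in 7 cells against 79 in 36 cells in the 6-month mouse and 19 in 11 cells against 481 in 99 cells in the 24-month mouse. Its difference was -3.02 (SE 0.273, adjusted p = 0.000194), and it passed in 7 of 8 other fits. Hbb-bs (beta globin) stood at -5.14 (SE 0.175, adjusted p = 2.7e-08), but 96.2% and 95.5% of its UMIs in the matched cells came from 1 cell of each mouse, and with another draw it was no longer called. Hba-a1, Hba-a2 and Hbb-bt rested likewise on single matched cells, which held between 91.5% and 96.9% of the UMIs. Ccl11 (eotaxin) was at 0 UMIs and 2 UMIs against 27 and 220, at -5.52 (adjusted p = 0.000250), with 40.7% and 28.6% of the matched UMIs in 1 cell. Cd52, Cx3cr1, Dmkn and Tnnt3 had between 42.9% and 91.7% of their UMIs in 1 matched cell of each mouse.

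**Figure D4:**
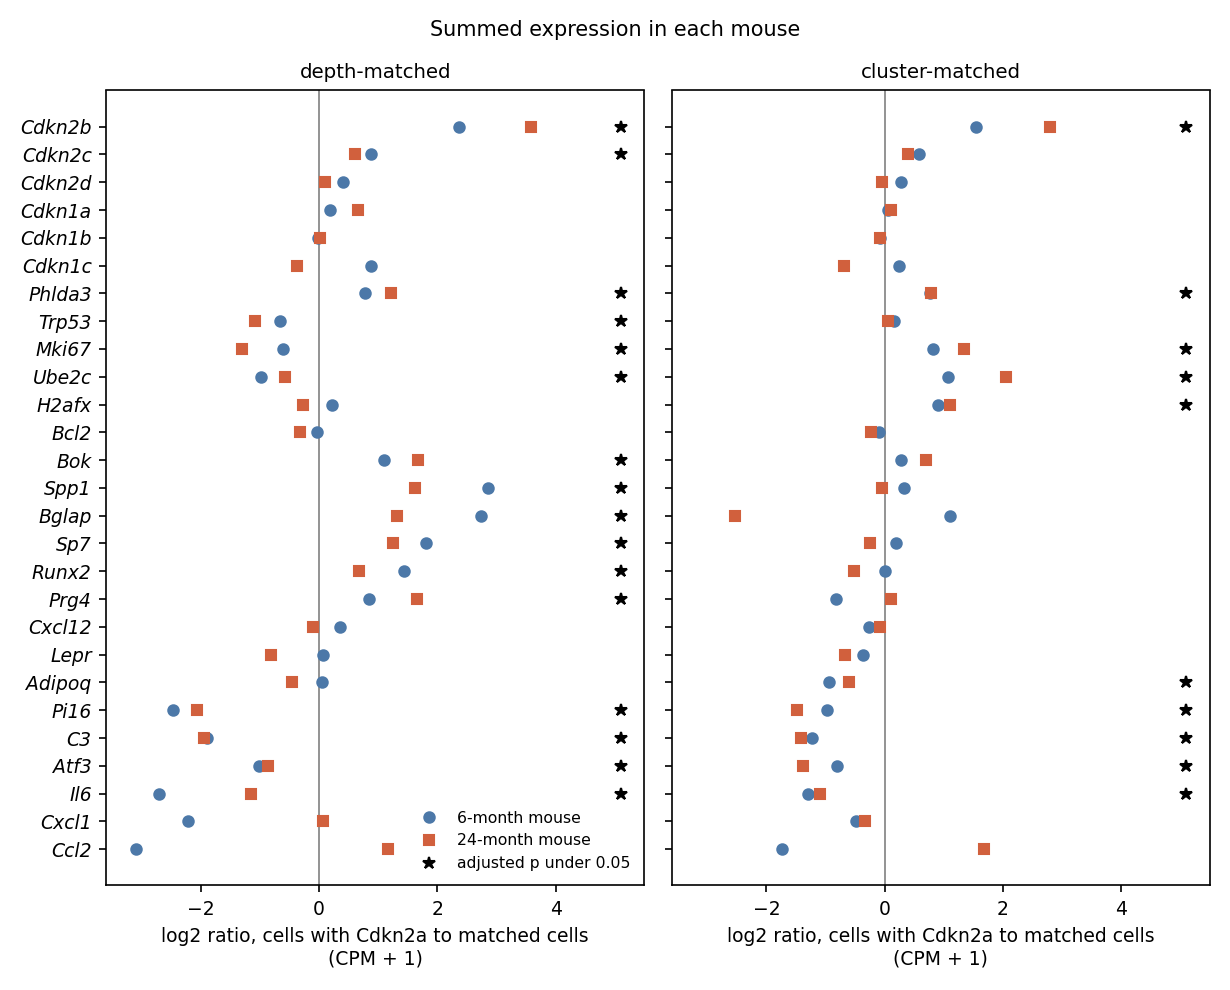
Log2 ratio of CPM + 1 (horizontal axis) in cells with Cdkn2a to matched cells, as sums in the 6-month mouse (circles) and the 24-month mouse (squares), for depth-matched (left) and cluster-matched cells (right), with stars at genes with an adjusted p under 0.05. Cdkn2b lies between 1.54 and 3.58 in all 4 ratios, and Mki67 changes from below to above 0. The osteoblast genes Spp1 and Sp7 move from above 0 to near 0. In the right panel Runx2 stands at 0.00 and -0.52 and Bglap at 1.10 and -2.53 in the 6- and 24-month mouse.

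CD24 protein was compared because CD24 was the surface marker followed in the study. In the 6-month mouse the cells with Cdkn2a had a median of 146 antibody UMIs (quartiles 84 and 263), depth-matched cells 117 (68 and 276.5) and cluster-matched cells 109 (64 and 251). In the 24-month mouse the medians were 107 (71.75 and 193.5), 123 (69 and 285.25) and 101 (60 and 182.75). The 158 cells of that mouse with cluster partners had a median of 103. The quartile ranges overlapped in every case, and the depth-matched ratio of medians was above 1 in one mouse and below 1 in the other. The means were lower with Cdkn2a than in depth-matched cells in both mice, at 401 against 583 and 210 against 714. Cluster-matched cells had means of 401 and 252, against 401 and 207 in the cells with partners. With 2 mice an exact paired permutation test cannot go below p = 0.5, and no test over cells was made. With the threshold set per library by Otsu's method, at 312 and 396 UMIs, 22 of 95 (23.2%, 15.1 to 32.9) and 15 of 168 cells (8.93%, 5.08 to 14.3) were CD24+. Depth-matched cells showed 22.3% (18.6 to 26.3) and 20.4% (17.7 to 23.2), and cluster-matched cells 20.4% (15.8 to 25.5) and 9.92% (7.38 to 13.0). Of the 158 cells of the 24-month mouse with cluster partners, 13 (8.23%, 4.45 to 13.7) were CD24+. The lower share against depth-matched cells in the 24-month mouse was thus not seen within clusters. The mRNA of CD24, Cd24a, was chosen for naming after its values were seen and stood at -2.22 (SE 0.426, adjusted p = 0.0388) by depth and -0.01 (SE 0.147, adjusted p = 1) within clusters.

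All 5 B-lineage-like cells with Cdkn2a of the 6-month mouse were CD24+, as were 98.7% of those without. None of 22 and 24 stromal cells with Cdkn2a was CD24+, with exact intervals that reach 15.4% and 14.2%, and 3 counts would be 13.6% and 12.5%. Osteoblast-like cells with Cdkn2a had medians of 172.5 and 128 antibody UMIs against 135 and 133 without, and 7 of 34 and 7 of 61 of them were CD24+ (20.6% and 11.5%, against 21.6% and 15.8%). Joint-lining-like cells had medians of 77 and 87.5 against 80 and 87. In the 6-month mouse 4 of 6 chondrocyte-like cells with Cdkn2a were CD24+ (66.7%, 22.3 to 95.7) against 23.7% of the others, and their median depth was 21568.5 against 6765 RNA UMIs. Tendon- or periosteum-like cells of that mouse had 3 of 7 (42.9%, 9.90 to 81.6) against 6.90%, with medians of 165 and 84 antibody UMIs, at 9420 against 7024.5 RNA UMIs. These differences did not recur in both measures in the 24-month mouse. There, chondrocyte-like cells had 2 of 7 (28.6%, 3.67 to 71.0) against 17.2%, with medians of 80 and 94 antibody UMIs. Tendon- or periosteum-like cells had 0 of 16 (interval to 20.6) against 5.77%, with medians of 83 and 92.5. Fibroblast-like cells of the 24-month mouse had medians of 125.5 against 78 antibody UMIs, at 16257.5 against 12202 RNA UMIs. None of these values within a class was matched for depth.

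**Figure D5:**
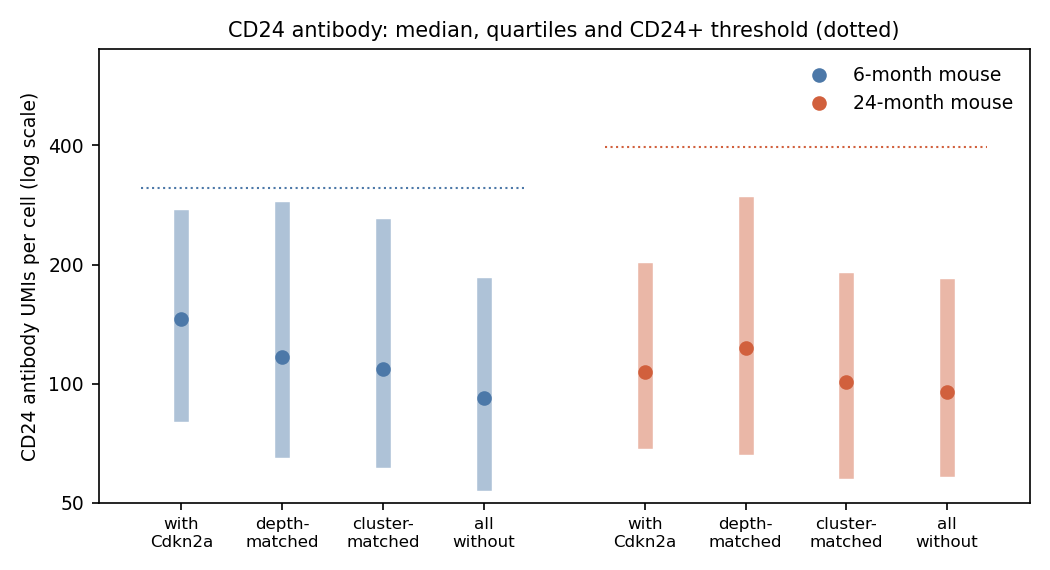
CD24 antibody UMIs per cell (vertical axis, log scale) as median (point) and quartiles (bar) in cells with Cdkn2a, depth-matched, cluster-matched and all cells without Cdkn2a of each mouse, with the CD24+ threshold dotted. The medians of the cells with Cdkn2a, 146 and 107, lie within the quartile ranges of the matched cells of each mouse.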

How the data were processed

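UMI counts per gene and cell were deposited by the authors as 1 raw matrix per mouse, with 32285 genes and 1 antibody. Cell Ranger 6.1.1 is named in the headers of the deposited count files, and the processing notes of the submitters name mm10. No column lacked a sample. Cells with at least 200 genes and at most 20% mitochondrial UMIs were kept. Cells were clustered without Cdkn2a with Seurat 5.3.0 (SCTransform, anchor integration, 30 components, resolution 0.8) into 27 clusters. Of these, 25 were named where at least 3 markers of a class were raised by over 1 log2 unit, unless another class had more markers among the 10 leading genes or the cluster was shallow with no marker of its class among them. Sums were tested with edgeR 4.0.16 (TMM, filterByExpr, 1 residual degree of freedom), with DESeq2 1.42.0 as an alternative, and the mouse was the block because both sums came from 1 animal. Per-mouse log2 ratios used CPM + 1. In simulated data, 94% of 200 genes changed by 2 log2 units were recovered with depth-matched sums (12628 genes) and 95% with cluster-matched sums (11731 genes). Of the unchanged genes, 3 and 5 were called. The simulation gave all genes 1 fixed dispersion and both mice the same profile. It held no class mix and no genes carried by single cells, so these shares are not the recovery in the real sums. Doublets were called with Scrublet in scanpy 1.11.5 and kept. The p-values rest on how far the 2 mice disagree in the difference between cells with Cdkn2a and matched cells. That spread is moderated over all genes by edgeR. The mice differ in age and are not replicates of 1 group.

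The cells, gene lists and tests were chosen with earlier results of these data known. Named genes were all CDK inhibitors, up to 4 genes per list with the largest change past 0.05 and the same sign in both mice by depth, genes of the study's protein panel within the lists, and the 10 highest and 10 lowest called genes with at least 10 UMIs in the higher group of each mouse. Cdkn2a itself was left out of all tests. Alternatives covered the mitochondrial limit, doublets, other draws, 20 depth bins, weighting, no matching, 2 or more Cdkn2a UMIs, scaling, filter, tool and block. Weighting to the strata was added after the data were seen. UMI sums at these depths limit genes under about 10 UMIs. A few genes that the rule names are not reported here.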

Additional observations from a re-analysis of the deposited data

Results flagged for a closer look

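The 2 mice moved in opposite directions for 5 named genes and for the median of CD24 antibody, each by at least 0.5 on the log2 scale for genes with at least 10 UMIs. The differences between the mice were not tested, since each rests on 1 mouse per age. Ccl2 stood at -3.09 in the 6-month and 1.16 in the 24-month mouse against depth-matched cells, a difference of 4.25, and at -1.73 and 1.68 within clusters, a difference of 3.41. Of its 1011 UMIs in the 24-month cells, 421 were in 1 cell. Within clusters Bglap stood at 1.10 and -2.53 (difference -3.63), Bglap2 at 0.75 and -2.06 (-2.80), Dmp1 at 1.06 and -0.77 (-1.83), and E2f2 at -1.29 and 0.90 (2.19). The 10 cells of the 24-month mouse without enough partners were left out of those values. CD24 antibody medians had log2 ratios of 0.32 and -0.20 to depth-matched cells, a difference of -0.52.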

How the results depend on the processing

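The share of cells with Cdkn2a was 0.33% and 0.93% at 2000 UMIs, and 0.318% and 1.75% with 2 or more UMIs required. It stayed within its intervals at a mitochondrial limit of 10% and without doublets. The number of genes called by depth was 1173. It was 665 with another draw, 647 with DESeq2, 706 with no replicate block (the mouse left out), 2264 with 2 or more Cdkn2a UMIs and 2673 with no filter. Of the 1173, 643 were also called with another draw and 616 with DESeq2. The number within clusters was 153. It was 252 with another draw (128 shared), 442 with no filter, 47 at a mitochondrial limit of 10%, 23 with DESeq2 and 0 with no replicate block. Causes were not tested. CD24 antibody had a mean log2 ratio over both mice of 0.06, and -1.15 with means of the cells in place of medians. Those means of the cells were lower with Cdkn2a than in depth-matched cells in both mice.

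In the cluster-matched in place of the depth-matched comparison, which also leaves out 10 of the 24-month cells with Cdkn2a, 21 named genes reversed. The UMIs of Bglap in the 24-month cells with Cdkn2a went from 24437 to 1637 and those of Bglap2 from 12279 to 1522 without these 10. Those then above 0 were Ccne1 (0.78), Mcm5 (0.15), Mki67 (1.11), Trp53 (0.10), Brca1 (0.51), Brca2 (0.16), H2afx (1.03), Ezh2 (0.24), Bub1b (1.98), Cxcl2 (1.89), Ncapg (1.78), Ube2c (1.72) and Kif4 (1.61). Those then below 0 were Tbx2 (-0.67), Bglap (-0.71), Bglap2 (-0.66), Runx2 (-0.28), Sp7 (-0.07), Col11a2 (-0.13), Col11a1 (-0.37) and Prg4 (-0.36). A gene counted as reversed where its sign changed and at least 1 of the comparisons called it. Mki67 and Ube2c were called in both. Others stood near 0 in 1 comparison, such as Sp7 within clusters (adjusted p = 0.969) and H2afx by depth (-0.04, adjusted p = 0.915). For those a loss of the difference cannot be told from a reversal. No named gene that passed reversed under scaling, tool, filter or block. Leaving out 1 mouse could not reverse genes named for their change, in the comparison that named them. The same sign in both mice was required there. DESeq2 lost the call of 27 named genes by depth and of 21 within clusters, and leaving out the block lost 25 and 33.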
